A study of Mus musculus with 8 samples.

Results

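The genes described here encode cytokines that T cells make: Ifng, Il2, Il4, Il10, Il17a, Il16, Tgfb1, Lta, Ltb and Csf1. They were taken by gene symbol from the expression table, with TNF and IL-21 left aside. Of the 10 genes, 9 had a row among the 17384 genes of the table, and Il17a, which had none, was not analysed here. RNA was sequenced from spleen cells sorted as B220+CD3+ in EAF2Faslpr mice (4 libraries), which the study's design describes as Eaf2-/- on the Faslpr background, and in Faslpr mice (4 libraries). Both groups thus carry Faslpr, the lpr insertion in the death receptor gene Fas, and differ by the loss of Eaf2, which encodes a partner of the ELL transcription elongation factors. No source used here gives the age and sex of the mice, the deleted part of Eaf2 or whether each library came from its own animal. The p-values therefore cover the spread among libraries alone, which may be technical.

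Activated T cells release sets of cytokines that act on other lymphocytes and on myeloid cells. IFN-γ, IL-4 and IL-17A define the classical helper T cell subsets, IL-2 drives T cell growth, and IL-10 and TGF-β1 restrain immune responses. Lymphotoxin α and β belong to the TNF family: lymphotoxin α can be secreted alone or be held at the cell surface in a complex with the membrane protein lymphotoxin β, and that complex organises lymphoid tissue. Mice with the lpr insertion accumulate T cells that carry CD3 together with the B220 form of CD45.

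Of the 9 genes with a row, 7 had enough reads to be tested, and 3 of these were higher in EAF2Faslpr cells: Csf1, Ltb and Lta. None was lower. The threshold for a call was an adjusted p under 0.05 (edgeR's quasi-likelihood test, Benjamini-Hochberg adjustment over all 12340 genes tested). By that rule 12.1% of all genes tested were called, 7.14% as higher and 4.96% as lower. The median log2 fold change, EAF2Faslpr over Faslpr, was 0.24 over the 7 cytokine genes and −0.01 over all genes tested. The 0.24 is the value of Il10, which did not pass and turned to −0.48 without EAF2Faslpr replicate 1, so it shows no general shift. For Ltb and Csf1 no EAF2Faslpr library overlapped a Faslpr library, as was the case in either direction for 17.7% of all genes tested. Ifng, Il10, Il16 and Tgfb1 did not pass.

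**Figure D1:**
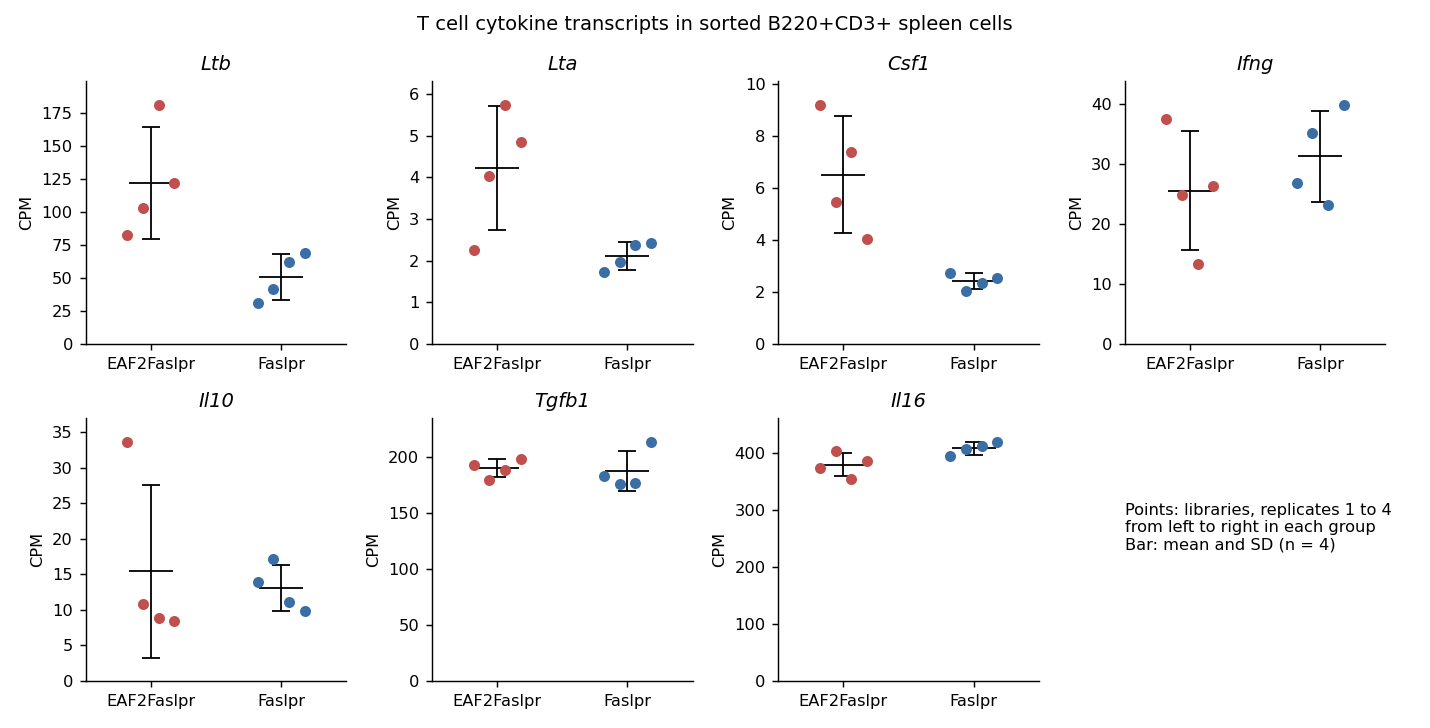
Levels of the 7 tested cytokine genes in counts per megaread of the tested genes (CPM, linear axes from 0), with EAF2Faslpr left of Faslpr. Points are the 4 libraries of a group and bars the mean and SD: every EAF2Faslpr library lay above every Faslpr library for Ltb and Csf1, while the groups overlapped for Lta, Ifng, Il10, Tgfb1 and Il16.

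Libraries held between 15.6 and 18.6 M estimated reads (M, megareads). Eaf2 averaged 4.74 ± 1.05 CPM in the EAF2Faslpr group, against 25.5 ± 4.49 CPM in the Faslpr group (SD, n = 4 each, as for each mean given with ±), with no overlap. Fas averaged 64.2 ± 6.87 CPM in EAF2Faslpr and 54.3 ± 9.81 CPM in Faslpr libraries with no call (adjusted p = 0.276). Of 9 T cell markers measured, 1 rose, and their summed level was 3327 to 3447 CPM in EAF2Faslpr and 3161 to 3743 CPM in Faslpr libraries. All 10 B cell markers rose, at a list median of 4.52-fold, with summed levels of 310.0 to 606 CPM in EAF2Faslpr and 61.0 to 127 CPM in Faslpr libraries, and none of them was at 0 in either group. EAF2Faslpr replicate 3 held the 606 CPM, and the other EAF2Faslpr libraries held at most 329 CPM. Of 9 macrophage markers tested 1 rose, Lyz2, which neutrophils also express. It missed the threshold by limma-voom and in 3 of 8 leave-one-out fits, and DESeq2 gave it no p-value. Their summed level was 47.0 to 128 CPM in EAF2Faslpr and 46.6 to 55.8 CPM in Faslpr libraries, and Lyz2 made up 75.1 CPM of the 128 CPM, which was in replicate 3. Without Lyz2 and Csf1r the other 8 macrophage markers summed to 37.4 to 47.2 CPM in EAF2Faslpr and 41.6 to 51.0 CPM in Faslpr libraries, and to 41.2 CPM in EAF2Faslpr replicate 3. That library also stood apart in neutrophil markers, of which 0 of 4 tested passed by edgeR or limma-voom and 3 had an unadjusted p under 0.05, the 3 to which DESeq2 gave no p-value (12.2 to 85.7 CPM in EAF2Faslpr, 11.9 to 16.6 CPM in Faslpr). Dendritic cell markers (1 of 4 rose, 22.4 to 42.6 CPM in EAF2Faslpr, 28.9 to 49.4 CPM in Faslpr), NK and innate lymphoid markers (3 of 5 rose, 1719 to 1943 CPM in EAF2Faslpr, 1955 to 2241 CPM in Faslpr, most of it Eomes, which did not pass) and stromal and endothelial markers (2 of 3 rose, 126 to 147 CPM in EAF2Faslpr, 59.4 to 86.3 CPM in Faslpr) complete the check. The dendritic cell marker that rose was Ccr9, which missed the threshold in 5 of 8 leave-one-out fits. The stromal and endothelial sums were mostly Pecam1. In sorted bulk cells, more cells of a type and more RNA per cell cannot be told apart.

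Ltb, the gene of the membrane-bound lymphotoxin β, was 2.4-fold higher in EAF2Faslpr cells. It was measured at 82.6, 103, 181 and 122 CPM in EAF2Faslpr replicates 1 to 4, against 30.8, 41.9, 62.0 and 69.0 CPM in Faslpr replicates 1 to 4. The lowest EAF2Faslpr library lay above the highest Faslpr library, and EAF2Faslpr replicate 3 was the highest of all. The means were 122 ± 42.4 CPM in EAF2Faslpr and 50.9 ± 17.6 CPM in Faslpr libraries (SD, n = 4 each), and the log2 fold change was 1.26 (SE 0.28, adjusted p = 0.0158 by edgeR's quasi-likelihood test). An exact permutation test (two-sided, 70 orderings) gave p = 0.0286, the lowest value possible with 4 against 4. Leaving out Faslpr replicate 2 ended the call (log2 fold change 1.18, adjusted p = 0.0553). B cells also transcribe Ltb, and the 10 B cell markers, at 310.0, 319, 606 and 329 CPM in EAF2Faslpr replicates 1 to 4 and at 61.0, 93.8, 127 and 80.8 CPM in Faslpr replicates 1 to 4, were highest in the same library as Ltb. Without EAF2Faslpr replicate 3 the log2 fold change of Ltb was 1.01 (adjusted p = 0.0401), and the part of the B cell transcripts in the result was not tested.

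Lta, the gene of lymphotoxin α, was 1.99-fold higher and at the edge of the threshold. The 4 EAF2Faslpr libraries gave 2.25, 4.04, 5.73 and 4.86 CPM, from 35, 74, 104 and 88 reads. The 4 Faslpr libraries gave 1.72, 1.97, 2.37 and 2.42 CPM, from 30, 33, 43 and 45 reads. EAF2Faslpr replicate 1 lay within the Faslpr range, and the other EAF2Faslpr libraries lay above it, with replicate 3 again the highest. The means were 4.22 ± 1.48 CPM in EAF2Faslpr and 2.12 ± 0.334 CPM in Faslpr libraries (SD, n = 4 each), with a log2 fold change of 0.99 (SE 0.28) and an adjusted p of 0.0454 by edgeR's quasi-likelihood test. By exact permutation (two-sided) p was 0.0857. The call was lost in 7 of 8 leave-one-out fits, all but the fit without EAF2Faslpr replicate 1, with adjusted p up to 0.124 (without EAF2Faslpr replicate 3, log2 fold change 0.81). B cells transcribe Lta too, and the rise of their markers in the same libraries was not tested as a part of it.

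Lymphotoxin β reaches the surface only with lymphotoxin α, so the levels of both transcripts were set side by side per length, as the authors' FPKM. The ratio of Ltb to Lta was 47.0, 32.4, 40.3 and 32.0 in the EAF2Faslpr libraries and 22.8, 27.3, 33.5 and 36.3 in the Faslpr libraries. Ltb was thus the more abundant transcript in each of the 8 libraries, and the ratios of the groups overlapped.

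On mouse chromosome 17, Ltb, Tnf and Lta follow each other as neighbouring genes in the RefSeq gene order (assembly GRCm38.p6, used here for the order only). Tnf, between the lymphotoxin genes, averaged 11.3 ± 3.50 CPM in EAF2Faslpr and 2.48 ± 0.566 CPM in Faslpr cells (log2 fold change 2.19, adjusted p = 0.000534 by edgeR). The coding genes beyond the cluster did not pass. Next to Lta, Nfkbil1 stood at 10.8 ± 1.44 in EAF2Faslpr and 8.55 ± 1.39 CPM in Faslpr cells (adjusted p = 0.202), and Atp6v1g2, Ddx39b and H2-D1 followed with log2 fold changes of 0.04, −0.16 and −0.23. On the Ltb side, Lst1 had too few reads to be tested, and Aif1, Prrc2a and Bag6 had log2 fold changes of 0.70, 0.03 and −0.03.

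Csf1, the gene of macrophage colony-stimulating factor, was 2.68-fold higher in EAF2Faslpr cells and had the smallest adjusted p of the cytokine genes. The 4 EAF2Faslpr libraries gave 9.19, 5.46, 7.39 and 4.03 CPM, from 143, 100, 134 and 73 reads. The 4 Faslpr libraries gave 2.75, 2.03, 2.37 and 2.53 CPM, from 48, 34, 43 and 47 reads. The groups did not overlap, and the highest library was EAF2Faslpr replicate 1, not replicate 3. The means were 6.52 ± 2.25 CPM in EAF2Faslpr and 2.42 ± 0.305 CPM in Faslpr libraries (SD, n = 4 each), and the log2 fold change was 1.42 (SE 0.26, adjusted p = 0.00559 by edgeR's quasi-likelihood test). By exact permutation (two-sided) p was 0.0286, again the lowest possible. The gene kept its call in all 8 leave-one-out fits, with adjusted p up to 0.0219 and log2 fold changes between 1.22 and 1.60, and at 1.36 (adjusted p = 0.0183) without EAF2Faslpr replicate 3. Ahcyl1, a neighbouring gene on chromosome 3, gave no call at a log2 fold change of −0.09. Stromal and endothelial markers were highest in the same library as Csf1. They summed to 147, 134, 142 and 126 CPM in EAF2Faslpr replicates 1 to 4, against 59.4 to 86.3 CPM in Faslpr libraries. Of the 8 markers 5 stayed under 1 CPM in each library, and Col3a1 was at most 3.25 CPM in EAF2Faslpr libraries. Col1a1 gave 28.6, 20.9, 19.7 and 17.6 CPM in EAF2Faslpr replicates 1 to 4, so most of each EAF2Faslpr sum was Pecam1. The part of the stromal and endothelial and of the B cell transcripts in the Csf1 result was not tested.

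**Figure D2:**
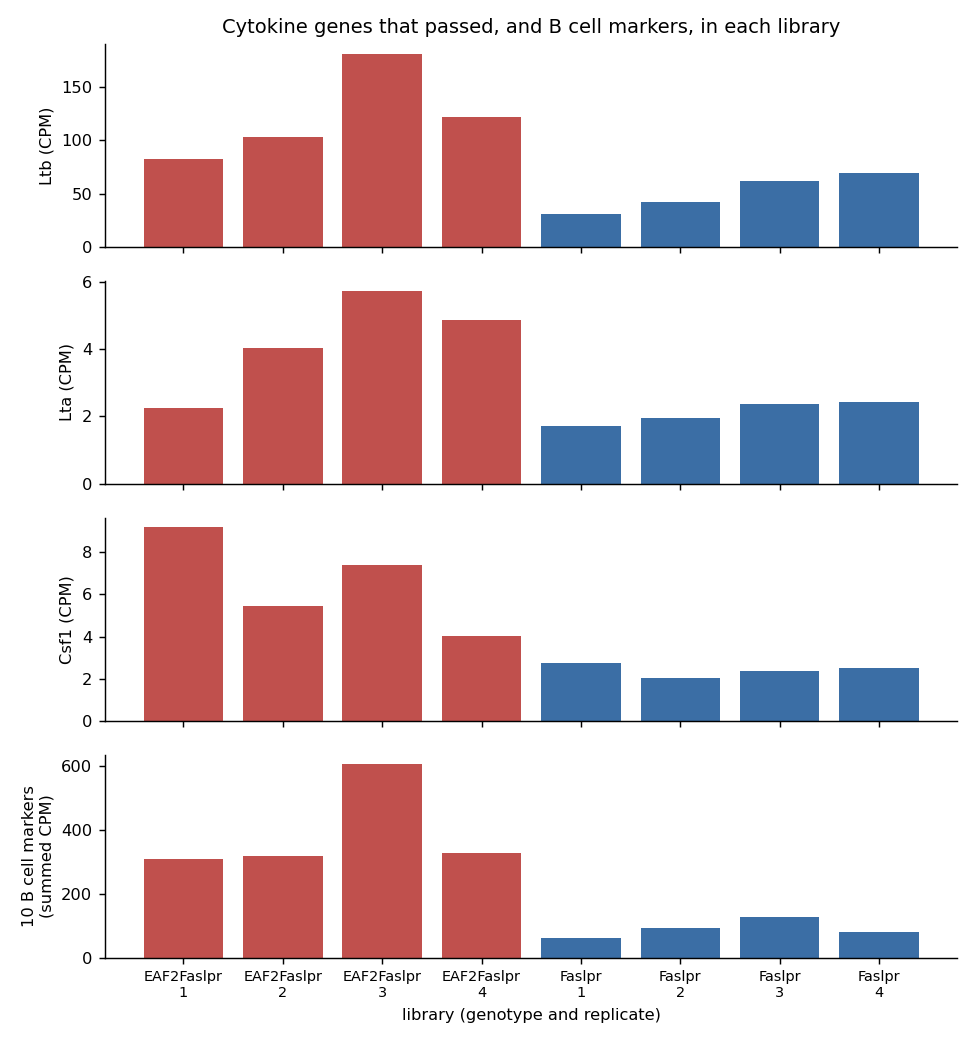
Bars give, for each library, the CPM of Ltb, Lta and Csf1 and the summed CPM of 10 B cell markers (linear axes from 0), EAF2Faslpr replicates 1 to 4 left of Faslpr replicates 1 to 4. Ltb, Lta and the B cell markers were highest in EAF2Faslpr replicate 3, and Csf1 was highest in EAF2Faslpr replicate 1.

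The sequences just upstream of the 3 genes that rose are shown because these genes were higher in the same group. Each is the 250 bases before the RefSeq start (build GRCm38.p6), read 5′ to 3′ on the strand of the gene, and capitals mark matches to 2 motifs on either strand, the NFAT core GGAAA and the kappaB consensus (the site of NF-kB). They are Ltb at chr17:35194257-35194506 (plus strand), Csf1 at chr3:107760470-107760719 (minus strand) and Lta at chr17:35205352-35205601 (minus strand).
Ltb: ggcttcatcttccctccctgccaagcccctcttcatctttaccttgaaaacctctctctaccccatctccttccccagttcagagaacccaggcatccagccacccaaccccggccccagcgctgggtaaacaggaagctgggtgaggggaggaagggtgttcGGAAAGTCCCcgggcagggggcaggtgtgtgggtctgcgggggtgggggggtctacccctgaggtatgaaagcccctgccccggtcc
Csf1: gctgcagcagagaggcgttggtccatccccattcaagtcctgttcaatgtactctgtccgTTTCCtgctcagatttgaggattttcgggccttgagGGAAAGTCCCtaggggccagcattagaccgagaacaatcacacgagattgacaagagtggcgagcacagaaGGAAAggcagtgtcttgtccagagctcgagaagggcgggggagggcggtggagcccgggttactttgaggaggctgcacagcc
Lta: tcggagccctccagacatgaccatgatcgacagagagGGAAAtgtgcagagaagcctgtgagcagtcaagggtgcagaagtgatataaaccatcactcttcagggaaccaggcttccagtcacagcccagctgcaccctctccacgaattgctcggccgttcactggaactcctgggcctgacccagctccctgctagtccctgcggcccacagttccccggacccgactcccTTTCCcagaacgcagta
The windows of Ltb and Csf1 both held the 10 letters GGAAAGTCCC, a kappaB match that overlaps an NFAT core, 78 to 87 bases before the start of Ltb and 145 to 154 bases before the start of Csf1. A kappaB match was found in 7.25% of the 32851 windows of the same length, and these exact 10 letters, looked up after the matches were seen, on either strand in 0.143% of them. The windows of Tgfb1 and of a start of Il16, cytokine genes with no call, also held kappaB matches, so a match was not limited to the genes that rose. The Lta window held 2 NFAT cores and no kappaB match, and a NFAT core was present in 55.6% of all windows. None of the 3 windows held the AP-1 motif TGANTCA (6.75% of all windows) or the CRE core TGACG (17.8%). A match is a run of letters and not a measured binding site, and a missing match says only that the letters are not in this window.

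Ifng, the gene of IFN-γ, the macrophage-activating cytokine of type 1 responses, did not pass. It was measured at 37.5, 24.9, 13.3 and 26.4 CPM in EAF2Faslpr libraries, against 26.8, 35.2, 23.2 and 39.9 CPM in Faslpr libraries. The groups overlapped, and the lowest value came from EAF2Faslpr replicate 3, where B cell transcripts were highest. T cell markers summed to 3445 CPM in that library, and the part of the B cell transcripts in the Ifng values was not tested. The means were 25.5 ± 9.89 CPM in EAF2Faslpr and 31.3 ± 7.61 CPM in Faslpr libraries (SD, n = 4 each), with a log2 fold change of −0.29 (SE 0.27; adjusted p = 0.564 by edgeR), and −0.08 without EAF2Faslpr replicate 3.

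Il10, the gene of a cytokine that dampens macrophage and dendritic cell activation, was set apart by 1 library. EAF2Faslpr replicate 1 had 33.7 CPM, while the other EAF2Faslpr libraries had 10.8, 8.87 and 8.39 CPM and the Faslpr libraries 13.9, 17.2, 11.2 and 9.84 CPM. The highest value thus came from an EAF2Faslpr library, and so did the lowest pair. The means were 15.4 ± 12.2 CPM in EAF2Faslpr and 13.0 ± 3.24 CPM in Faslpr libraries (SD, n = 4 each), with a log2 fold change of 0.24 (SE 0.42; adjusted p = 0.787 by edgeR). Without EAF2Faslpr replicate 1 the sign turned, to −0.48 (adjusted p = 0.189).

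**Figure D3:**
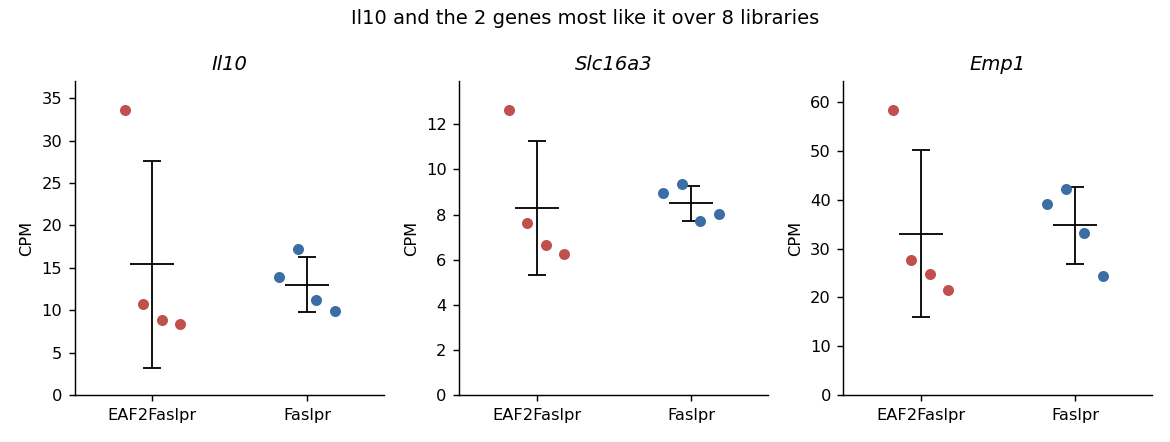
CPM (linear axes from 0) of Il10 and of Slc16a3 and Emp1, the 2 genes most like it over the 8 libraries, with EAF2Faslpr left of Faslpr; points are libraries and bars the mean and SD of 4. In each panel EAF2Faslpr replicate 1 (33.7, 12.7 and 58.5 CPM) lay above the 7 other libraries.

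Il2 and Il4 were close to undetected. Il2, the gene of the T cell growth factor, had 1 read in EAF2Faslpr replicate 1 and 1 read in Faslpr replicate 3. Il4, the cytokine of type 2 help, had 2 reads in EAF2Faslpr replicate 1 and 1 in EAF2Faslpr replicate 4, and none in the Faslpr libraries. A count of 0 allows up to 3 counts in a library, 0.161 to 0.179 CPM in the Faslpr libraries, so no fold is given, and a difference was not detectable at this depth.

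Il16 and Tgfb1 were the cytokine genes with the most CPM in each of the 8 libraries, and neither passed. Il16 encodes a precursor whose secreted part binds CD4. It was measured at 373, 403, 354 and 387 CPM in EAF2Faslpr libraries and at 394, 407, 413 and 420 CPM in Faslpr libraries. The ranges overlapped, with EAF2Faslpr replicate 2 above Faslpr replicate 1, and the log2 fold change was −0.11 (SE 0.06, adjusted p = 0.352 by edgeR; exact two-sided permutation p = 0.0571). Tgfb1, made as a latent precursor, was at 193, 179, 188 and 198 CPM in EAF2Faslpr and at 183, 176, 177 and 213 CPM in Faslpr libraries. The Faslpr range enclosed the EAF2Faslpr values, with a log2 fold change of 0.02 (SE 0.08, adjusted p = 0.911 by edgeR), and the sign of so small a value turned in 3 of 8 leave-one-out fits.

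**Figure D4:**
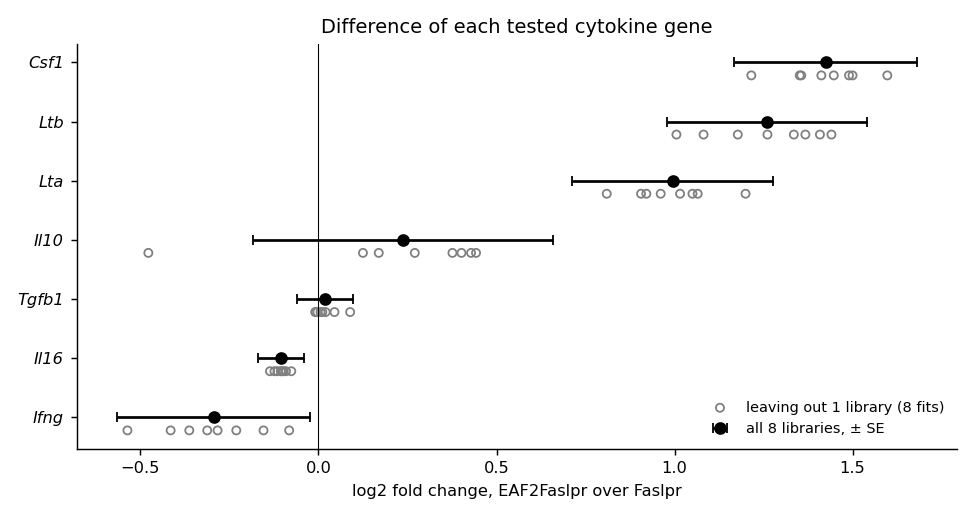
Log2 fold change, EAF2Faslpr over Faslpr, of the 7 tested cytokine genes with its SE (filled), and the values of the 8 fits that each left out 1 library (open). Csf1, Ltb and Lta lay above 0 in each fit, while Il10 lay at −0.48 without EAF2Faslpr replicate 1 and Tgfb1 stayed between −0.01 and 0.09.

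Per length (FPKM, mean ± SD, n = 4 each), the order of levels in EAF2Faslpr cells was Il16 (120.2 ± 5.84), Ltb (117 ± 41.8), Tgfb1 (89.8 ± 3.68), Ifng (22.0 ± 8.44), Il10 (12.3 ± 9.70), Lta (3.18 ± 1.14) and Csf1 (1.73 ± 0.575). The library ranges of Il16, Ltb and Tgfb1 overlapped their neighbour in this order, as did those of Ifng and Il10 and those of Lta and Csf1. In Faslpr cells Tgfb1 (87.9 ± 8.39) stood above Ltb (48.5 ± 17.0), between Il16 (128 ± 4.22) and Ifng (26.8 ± 6.59), and among these 7 genes only Ltb and Ifng overlapped as neighbours. Il10 (10.3 ± 2.57), Lta (1.58 ± 0.256) and Csf1 (0.613 ± 0.0695) followed in the order seen in EAF2Faslpr cells.

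Across the 8 libraries, the genes most like each cytokine gene were sought among 9752 genes of at least 5 CPM, by Pearson's r of log2(CPM + 1), for the cytokine genes that averaged at least 5 CPM. For Ltb they were Niban3 (r = 0.992, and 0.975 after removing the group means) and Ly6d (r = 0.991 and 0.975). Both were highest in EAF2Faslpr replicate 3, as were the summed B cell markers. Niban3 and Ly6d also passed as higher (adjusted p = 0.0202 and 0.0222 by edgeR). The part of the B cell transcripts in the likeness to Ltb was not tested. For Il10 the genes most like it were Slc16a3, a lactate exporter gene (r = 0.971 and 0.984), and Emp1 (r = 0.956 and 0.974). Il10, Slc16a3 and Emp1 were all highest in EAF2Faslpr replicate 1, and their likeness without that library was not tested. Ifng was closest to Lsm12 (r = 0.956) and Raver1 (r = 0.945), Il16 to Bag5 (r = 0.979) and Bicdl1 (r = 0.963), and Tgfb1 to Ppp2r5b (r = 0.961) and Rfc2 (r = 0.948). The points share depth and cell make-up within a library, and these values are a description.

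Receptors for these cytokines were measured in the same cells. Of 16 tested receptor genes, 4 rose and 2 fell, beside 7.14% called higher and 4.96% called lower of all genes tested. The genes for the receptors of the cytokines that rose did not pass or were too low: Csf1r, the CSF1 receptor of myeloid cells, was at 6.49, 2.02, 11.8 and 1.16 CPM in EAF2Faslpr and at 1.49, 2.68, 2.59 and 2.10 CPM in Faslpr libraries (adjusted p = 0.228 by edgeR). Its highest value came from EAF2Faslpr replicate 3 and the next from replicate 1. Ltbr, the lymphotoxin β receptor, averaged 0.280 ± 0.340 CPM in EAF2Faslpr and 0.230 ± 0.150 CPM in Faslpr libraries and was not tested. Tnfrsf1a and Tnfrsf1b, the TNF receptors that secreted lymphotoxin α also binds, had log2 fold changes of −0.14 and −0.87 (adjusted p = 0.629 and 0.289). Tnfrsf1b ranged from 30.9 to 41.1 CPM in EAF2Faslpr and from 21.6 to 132 CPM in Faslpr libraries.

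Among the receptor genes that rose, Cd4, to which IL-16 binds, was 2.71-fold higher (98.4 ± 31.7 CPM in EAF2Faslpr, 36.3 ± 14.0 CPM in Faslpr, adjusted p = 0.00771) and Ifngr2, the signalling chain of the IFN-γ receptor, 2.27-fold higher (5.98 ± 1.88 CPM in EAF2Faslpr, 2.64 ± 0.585 CPM in Faslpr, adjusted p = 0.0123). Ifngr1, its ligand-binding chain, gave no call (log2 fold change −0.42, adjusted p = 0.254). Il2ra, the α chain that gives the IL-2 receptor its high affinity, was 1.51-fold higher (50.4 ± 6.57 CPM in EAF2Faslpr, 33.3 ± 3.66 CPM in Faslpr, adjusted p = 0.00675), in cells with next to no Il2 reads. Il2rb, the β chain, was 1.32-fold higher (adjusted p = 0.0177) and missed the threshold in 2 of 8 leave-one-out fits. Cd9, a tetraspanin reported to bind IL-16, was 1.52-fold lower (113 ± 9.40 CPM in EAF2Faslpr, 171 ± 12.9 CPM in Faslpr, adjusted p = 0.00137). Il4ra, the IL-4 receptor chain, was 1.53-fold lower (166 ± 28.7 CPM in EAF2Faslpr, 254 ± 43.2 CPM in Faslpr, adjusted p = 0.0213) and lost its call in 2 of 8 such fits, among them the fit without EAF2Faslpr replicate 3 (adjusted p = 0.0519). Il2rb and Il4ra were named after their values were seen, and the part of the B cell transcripts in these differences was not tested. For Cd4 and the other receptor genes, a changed share of cells and changed RNA per cell cannot be told apart in sorted bulk cells.

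**Figure D5:**
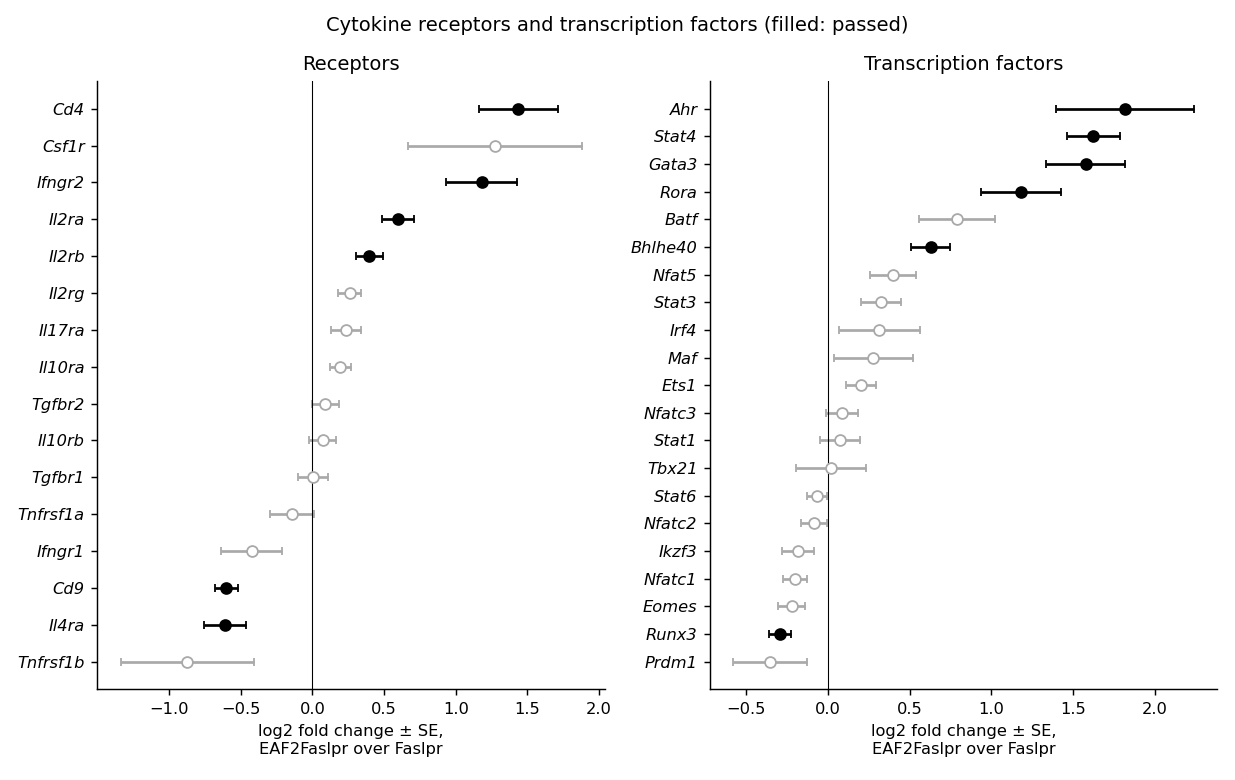
Log2 fold change with SE, EAF2Faslpr over Faslpr, of the 16 tested receptor genes (left) and 21 tested transcription factor genes (right); filled points passed. Cd4 and Ahr had the highest values of their panels, and Il4ra, Cd9 and Runx3 passed as lower.

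Transcription factors that direct cytokine gene programmes followed the same comparison, and 5 of 21 tested rose and 1 fell. Of all genes tested, 7.14% were called higher and 4.96% lower. Stat4, which carries the IL-12 signal to Ifng, was 3.09-fold higher (51.2 ± 8.83 CPM in EAF2Faslpr, 16.6 ± 3.29 CPM in Faslpr, adjusted p = 0.000199). Gata3, the type 2 helper factor, was 2.98-fold higher at a low level (5.52 ± 0.933 CPM in EAF2Faslpr, 1.85 ± 0.549 CPM in Faslpr, adjusted p = 0.00234), while Il4 stayed near 0 reads. Bhlhe40, which restrains Il10 in mouse T cells, was 1.55-fold higher (131 ± 22.4 CPM in EAF2Faslpr, 84.8 ± 8.13 CPM in Faslpr, adjusted p = 0.00675), and Rora 2.27-fold higher (3.71 ± 0.890 CPM in EAF2Faslpr, 1.63 ± 0.347 CPM in Faslpr, adjusted p = 0.0110). Ahr also rose, at low levels (1.36 ± 0.496 CPM in EAF2Faslpr, 0.377 ± 0.210 CPM in Faslpr, adjusted p = 0.0193) and missed the threshold in 3 of 8 leave-one-out fits, and Runx3 was 1.22-fold lower (adjusted p = 0.0167); both were named after their values were seen. Tbx21 and Eomes, the T-box factors of IFN-γ production, gave no call (log2 fold changes 0.02 and −0.22, adjusted p = 0.964 and 0.119). The part of the B cell transcripts was not tested here either, and with both replicates numbered 4 left out 3 of the 21 factors passed. Shares of cells and RNA per cell cannot be told apart for these factors either.

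Among 9 RNA-binding regulators of cytokine mRNA decay, which include the stabilising factor Elavl1 (no call), 2 rose. Of all genes tested, 7.14% were called higher and 4.96% lower. Zfp36, which binds AU-rich elements such as that of Tnf, was 1.96-fold higher (325 ± 52.4 CPM in EAF2Faslpr, 166 ± 31.0 CPM in Faslpr, adjusted p = 0.00224). Zc3h12a, the endonuclease Regnase-1, was 1.59-fold higher (50.3 ± 2.02 CPM in EAF2Faslpr, 31.5 ± 4.86 CPM in Faslpr, adjusted p = 0.00304). By DESeq2 and without Faslpr replicate 3, 4 of the 9 passed, and the part of the B cell transcripts was not tested. Genes of TGF-β release and signalling passed in 0 of 11 members by edgeR, while 2 had an unadjusted p under 0.05, DESeq2 called 1 and limma-voom 0. Furin, which cleaves the TGF-β1 precursor, was at 62.1 ± 4.84 in EAF2Faslpr and 57.2 ± 5.74 CPM in Faslpr cells. Of 27 other secreted cytokine genes 23 had a row and 7 were tested, of which 0 passed by edgeR, DESeq2 or limma-voom and 1 had an unadjusted p under 0.05. Il12a, Lif, Mif and Flt3l, the members above 10 CPM on average in both groups, had log2 fold changes of −0.24, 0.01, 0.03 and −0.08. Lif stood at 78.0 CPM in EAF2Faslpr replicate 1, against 18.8 to 30.6 CPM in the other EAF2Faslpr libraries. Faslpr libraries held 29.7 to 43.1 CPM of Lif. Its log2 fold change ranged from −0.66 to 0.22 when 1 library was left out, so the 0.01 does not show an unchanged level.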

How the data were processed

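RNA was measured in 8 libraries of sorted B220+CD3+ spleen cells, 4 EAF2Faslpr and 4 Faslpr, grouped and numbered by their titles. Per the labels' protocols, TRIzol was used for extraction and an mRNA kit for the DNBSEQ libraries. The authors deposited estimated counts, as RSEM gives them and without scaling, and FPKM for each library. Their TPM and scaled read counts (a score per gene, 16 deposited columns) were not used. The submitters' processing notes name RSEM 1.3.1, HISAT2 2.2.1, Bowtie2 2.4.5 and the build GRCm39, without their roles. Annotation, filters and strand setting: not given in the sources used here. In the RefSeq gene table no coding gene overlapped a cytokine gene with a row.

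Estimated counts were rounded to whole numbers (36.8% were whole within 0.001), filtered with filterByExpr and scaled by TMM. The test was edgeR 4.0.16's (R 4.3.3), using glmQLFit and glmQLFTest over all 8 libraries with no covariate and Benjamini-Hochberg adjustment over 12340 genes, passing at an adjusted p under 0.05. Adjusted p values are from this fit where no other tool is given. Standard errors are the absolute log2 fold change over the square root of F. CPM are per megaread of the tested genes after TMM scaling. Single genes were also compared by exact two-sided permutation of CPM (scipy 1.17.1). The test scripts were tested on simulated data. DESeq2 1.42.0, limma-voom 3.58.1, RLE factors, no filter, a replicate block and left-out libraries were the alternatives. Differences between replicates exceeded sampling noise (chi-square per degree of freedom 9.54 to 37.4). Floors of 3 counts cover counting error only.

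The cytokine genes and all gene lists were chosen with earlier results of these data known. Named genes followed a rule: the cytokine genes, Eaf2 and Fas, up to 4 passing members of each pathway list by smallest p, the receptors of called cytokines, and the 2 genes most like each cytokine gene of at least 5 CPM. Named beside the rule, after their values were seen, were Tnf and the neighbours (by position), Ifngr1, Il2rb, Il4ra, Ahr, Runx3, Tbx21, Eomes, Furin, Lyz2, Elavl1, Il12a, Lif, Mif and Flt3l. Promoter sequences are RefSeq's (GRCm38.p6), held for 9 of the 10 genes.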

Additional observations from a re-analysis of the deposited data

Results flagged for a closer look

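In groups of 4 libraries, 78 sets of values were examined for a library far from the other 3, by a rule that chance meets in about 1 in 20 groups, and 6 met it. Il10 stood at 33.7 CPM in EAF2Faslpr replicate 1, against 8.39 to 10.8 CPM in the other EAF2Faslpr libraries. Emp1, of the genes most like Il10, stood at 58.5 CPM in the same library, against 21.5 to 27.6 CPM. Emp1 had been picked for its likeness to Il10, so its flag is not separate from that of Il10. Ifngr2 stood at 8.76 CPM in EAF2Faslpr replicate 3, against 4.69 to 5.27 CPM in the other EAF2Faslpr libraries. The same replicate 3 held summed levels of 606 CPM of B cell markers (310.0 to 329 CPM in the others), 128 CPM of macrophage markers (47.0 to 59.7 CPM), of which Lyz2 made up 75.1 CPM, and 85.7 CPM of neutrophil markers (12.2 to 16.8 CPM).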

How the results depend on the processing

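Csf1 kept its direction and its call under all 14 alternatives, and Ifng and Il16 their direction and the absence of a call. Ltb lost its call without Faslpr replicate 2 alone, with log2 fold changes of 1.01 to 1.44 over the leave-one-out fits. Lta lost it by limma-voom (log2 fold change 0.94, adjusted p = 0.0741), without both replicates numbered 4 (0.99, adjusted p = 0.140) and in 7 of 8 leave-one-out fits (0.81 to 1.20). Il10 turned its sign by limma-voom (−0.021) and ranged from −0.48 to 0.44 when 1 library was left out, and Tgfb1 from −0.0091 to 0.089. The cytokine genes called ranged from 1 to 3 (1 without Faslpr replicate 2), and all genes called from 990 (without Faslpr replicate 2) to 1602 (without Faslpr replicate 3) when 1 library was left out, with 1898 by DESeq2. Genes of TGF-β release ranged from 0 to 1 and stood at 1 by DESeq2 (Smad7), decay factors ranged from 2 to 4 and stood at 4 by DESeq2, and transcription factors stood at 3 without both replicates numbered 4. The cause of these changes was not tested. The labels give no meaning to a shared replicate number, and same-numbered libraries had correlations of deviations between −0.0501 and 0.168. Under a replicate block, 1425 genes passed, among them the 3 cytokine genes (Lta adjusted p = 0.0345). Depth limits Il2 and Il4, which had at most 2 reads in a library.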
